A study of Homo sapiens with 2 samples.

Results

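Barcodes of one lung adenocarcinoma line, called the SLC30A8 line here after a leading marker, were divided by how much mitochondrial RNA they held, and their gene expression and open chromatin were compared. A barcode entered with at least 2000 unique molecular identifiers (UMIs) outside the 13 mitochondrial genes and at least 1000 peak counts. Its summed UMIs of LINC01194, SLC30A8, MAGEA10 and GRM7-AS3 had to reach 2 and exceed 3 times the sum of 8 markers of the other lines (RBFOX3, AKR1B10, S100A9, CST1, GRIA4, LINC01980, DHRS2 and NALCN-AS1). Of 3298 barcodes, 3091 passed both depth minimums and 504 belonged to the line. Of these, 289 had under 1% mitochondrial UMIs and are called nucleus-like, and 175 had 4 to 20% and are called cytoplasm-keeping. The members were thus chosen by measured values, the UMIs and marker and mitochondrial UMIs of the RNA library and the peak count total of the ATAC library, and these are description only. Another 35 lay between 1 and 4% and 5 above 20%. The barcodes nearest the limits had 0.978% inside and 1.02% outside the lower limit, 3.93% outside and 4.07% inside the middle limit, and 19.3% inside and 21.3% outside the upper limit. Just 2 marker UMIs placed 23 of the 464 members.

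The cells came from an equal mixture of A549, H838, H1975, H2228 and HCC827, established human lung adenocarcinoma lines that had been cultured apart in RPMI with fetal calf serum, dissociated and frozen. One droplet capture was split, and the RNA and ATAC libraries of its 80% fraction were used, so every one of the 3298 distinct barcodes carries both readouts. Neither set was treated, and both sets share 1 culture, 1 capture and 1 library of each kind. No replicate therefore exists, no test was made, and all intervals are exact 95% intervals of counting error only, with PCR and culture variation outside them.

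Most messenger RNA is made and spliced in the nucleus and then exported to the cytoplasm, where ribosomes translate it. Messages for secreted, lysosomal and membrane proteins are translated at ribosomes docked on the endoplasmic reticulum (ER), whose membrane is continuous with the outer nuclear envelope. Mitochondrial messages are made and kept inside mitochondria, and a preparation of stripped nuclei holds few of them. ATAC-seq reads open DNA, which lies in the nucleus whether or not cytoplasm is kept.

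The names of the sets stand for the mitochondrial share that chose them, which had a median of 0.240% (lowest 0.0179%, highest 0.978%) in nucleus-like and 10.9% (4.07 to 19.3%) in cytoplasm-keeping barcodes. Nucleus-like barcodes had fewer UMIs outside mitochondrial genes, with a median of 6077 (2182 to 51573) against 13876 (3336 to 79994). They had more peak counts, with a median of 20072 (1042 to 237834) against 13851 (1174 to 219546). Peak counts per UMI thus had medians of 3.19 and 1.22, with overlapping ranges. After each barcode was thinned to 2000 UMIs, a median of 1479 and 1504 genes was detected, against 3273 and 5284 without thinning. The sets summed to 1996696 and 2925933 UMIs and to 6417969 and 4188832 peak counts.

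The line's own genes were present in both sets, and the rule used 4 of them. Together those 4 made up 0.111% of UMIs outside mitochondrial genes in nucleus-like barcodes (0.106 to 0.116%) and 0.0985% in cytoplasm-keeping ones (0.0949 to 0.102%). LINC01194, a long noncoding RNA, stood at 501 and 419 CPM (UMIs scaled to a total of 1000000 outside mitochondrial genes), and SLC30A8, a zinc transporter of secretory granules, at 423 and 310 CPM. MAGEA10, a cancer-testis antigen, stood at 66.1 and 191 CPM, so the marker sum that admits a barcode leans on other genes in the 2 sets. A further 6 genes of the line (HTR1E, GNAS-AS1, MAGEA4, CTAG2, MAGEA1 and THY1) summed to 0.025% and 0.0251%. These near-equal sums hold genes of both directions. HTR1E was 2-fold higher in nucleus-like barcodes, 1 other gene was 2-fold lower, and the median log2 ratio was -0.66. Without the mixed barcodes described below, the sums were 0.0253% and 0.0298%. Of the 6 genes, 3 were then 2-fold lower and 1 higher, with a median of -0.86. Markers of cells foreign to a culture were scarce: 12 immune genes summed to 0.00150% and 0.00441%, of which CD68, also a lysosomal membrane protein, gave 22 of the nucleus-like and 100 of the cytoplasm-keeping UMIs. PTPRC had 0 and 3 UMIs, 5 of the 12 immune genes (CD2, CD3D, MS4A1, LYZ and NKG7) had none, and 5 of 5 red cell genes had none. The 8 endothelial genes summed to 0.00210% and 0.00154% and the 8 fibroblast genes to 0.00295% and 0.00335%, with KDR, COL3A1 and DCN at 0 in both sets.

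Part of the cytoplasm-keeping set carried transcripts of other lines. A list of 369 genes was drawn, after the values were seen, that reached 100 CPM in another line and were detected in under 10% of the 504 barcodes. These genes made up over 0.3% of UMIs in 26 of 175 cytoplasm-keeping barcodes (14.9%) and in 7 of 289 nucleus-like ones (2.42%), called mixed barcodes here. The nearest members on either side of that limit had 0.265% and 0.338%. The 26 had a median of 1.69% (0.363 to 3.87%), against a median of 0.0783% in the other 149 cytoplasm-keeping barcodes. They had a median of 23273 UMIs and 40509.5 peak counts, and 25 of the 26 exceeded all the other 149 in the share of peak counts in 5829 peaks of other lines. They gave 26.1% of the UMIs and 34.2% of the peak counts of their set, while the 7 nucleus-like ones gave 4.77% and 6.87%. No doublet caller was run. Values below include the mixed barcodes unless stated otherwise, and values without them are added for many results but not for all. Single gene levels given only with them can differ without them, some beyond their counting intervals.

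Of 13609 genes with at least 20 UMIs over both sets, 955 (7.02%) were at least 2-fold lower in nucleus-like barcodes and 294 (2.16%) at least 2-fold higher, as ratios of CPM + 1, which understates the ratios of low genes. Without mixed barcodes, 622 of 12734 genes were lower (4.88%) and 322 higher (2.53%). The comparisons with and without mixed barcodes shared 498 lower and 192 higher genes. Of the 457 genes that were lower only with mixed barcodes, 213 belonged to the 369 genes of other lines. Those 369 genes also picked out the mixed barcodes, so this overlap follows from that choice. Among 5236 genes that reached 50 CPM in either set, 335 (6.4%) were lower and 14 (0.267%) higher, and without mixed barcodes 342 (6.61%) and 9 (0.174%) of 5177. The direction of large differences at well measured genes was therefore mostly towards lower in nucleus-like barcodes. The median log2 ratio of all genes was 0.09, and 0.12 without mixed barcodes. Scaling by trimmed means moved it to -0.03, and ratios near 0 are best read against these medians.

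**Figure D1:**
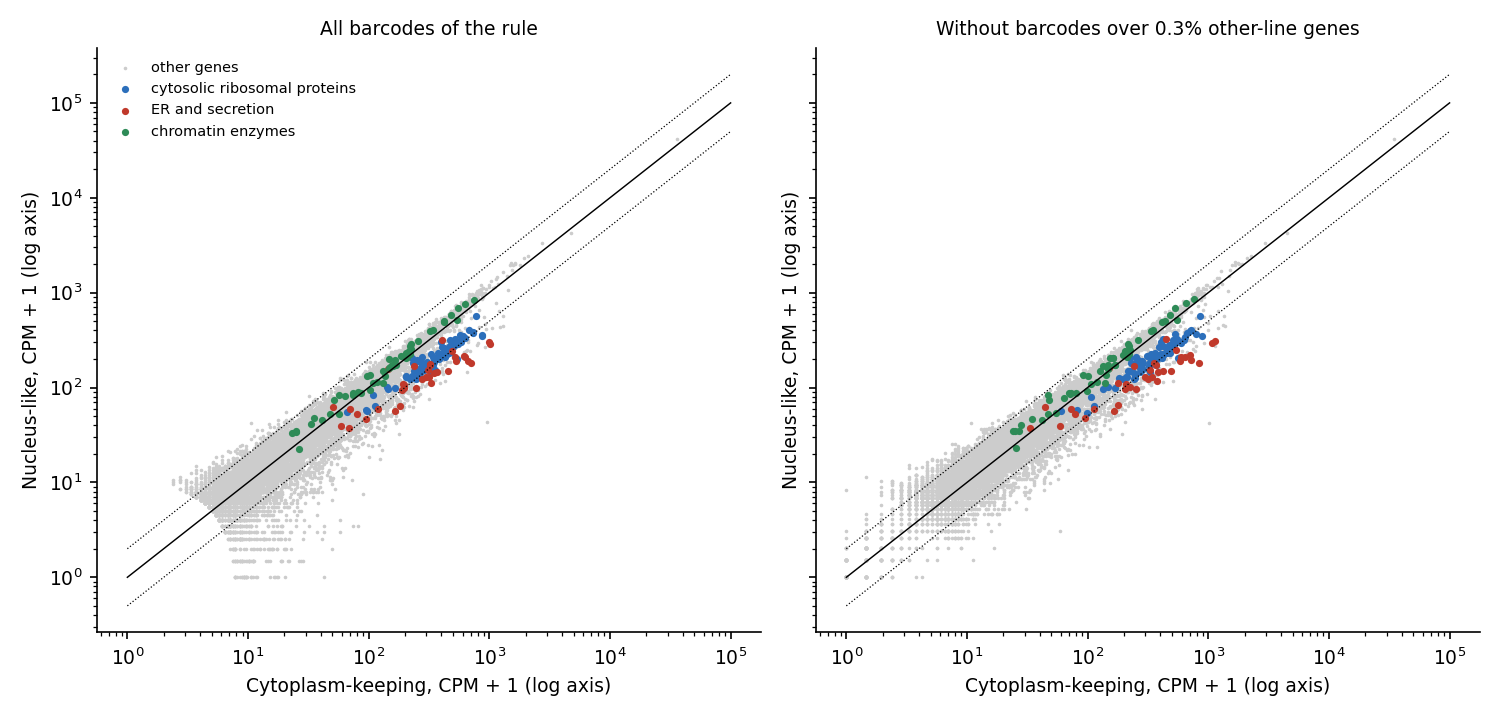
Level of each gene in nucleus-like (y) against cytoplasm-keeping (x) barcodes, as CPM + 1 on log axes, with all 464 barcodes (left) and without the 33 mixed ones (right). The solid line marks equal levels and dotted lines 2-fold. ER genes (34 of 36 on the left) and all 79 ribosomal protein genes on the left sit below the line, chromatin enzymes sit near or above it, and genes near 0 in nucleus-like but not in cytoplasm-keeping barcodes are many on the left and few on the right.

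Genes of the ER and of protein secretion made up one of the lists furthest below the median of all genes. Of 36 such genes, all measured, 22 were at least 2-fold lower in nucleus-like barcodes and none was 2-fold higher. Their median log2 ratio was -1.10, beside 0.09 for all genes. Without mixed barcodes 23 were lower and the median was -1.18. Together they made up 0.506% of UMIs (0.496 to 0.516%) in nucleus-like and 1.22% (1.20 to 1.23%) in cytoplasm-keeping barcodes. HSP90B1, the ER chaperone GRP94, stood at 289 CPM (266 to 314) against 1008 CPM (971 to 1045), from 578 and 2948 UMIs. CALR, a calcium-binding chaperone of glycoproteins, stood at 304 CPM (280 to 329) against 998 CPM (962 to 1035). KDELR1, the receptor that returns escaped ER proteins from the Golgi, had the smallest ratio of the list, at 178 CPM (160 to 198) against 698 CPM (668 to 729), a log2 ratio of -1.96. None of these 3 pairs of intervals overlapped. SRP9, a subunit of the signal recognition particle, had the largest ratio, at 62.1 and 49.9 CPM. SEC61G, a translocon subunit singled out after its values were seen, had a log2 ratio of -0.89 with mixed barcodes and 0.18 without them.

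The upstream sequences of the 3 ER genes highest in cytoplasm-keeping barcodes are shown because their RNA was over 2-fold lower in nucleus-like barcodes and the peaks over them were not. Each is the 250 bases before the RefSeq start, from GRCh38.p14, 5′ to 3′ on the gene's own strand: HSP90B1 at chr12:103930160-103930409 (plus strand), CALR at chr19:12938359-12938608 (plus strand) and KDELR1 at chr19:48391552-48391801 (minus strand). Capitals mark the ER stress response element, searched on both strands as CCAAT, then 9 bases of any kind, then CCACG, a motif known to be bound by NF-Y and ATF6.
HSP90B1: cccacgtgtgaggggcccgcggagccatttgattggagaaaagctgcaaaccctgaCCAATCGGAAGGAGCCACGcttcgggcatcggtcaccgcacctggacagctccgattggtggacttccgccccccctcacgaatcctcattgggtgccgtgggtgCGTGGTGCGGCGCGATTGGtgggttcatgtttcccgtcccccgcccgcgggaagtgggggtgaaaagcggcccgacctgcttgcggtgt
CALR: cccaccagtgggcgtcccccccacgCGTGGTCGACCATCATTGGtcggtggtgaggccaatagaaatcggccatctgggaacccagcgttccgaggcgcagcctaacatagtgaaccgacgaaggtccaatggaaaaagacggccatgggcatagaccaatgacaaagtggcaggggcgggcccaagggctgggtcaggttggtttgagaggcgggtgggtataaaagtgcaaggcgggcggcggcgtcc
KDELR1: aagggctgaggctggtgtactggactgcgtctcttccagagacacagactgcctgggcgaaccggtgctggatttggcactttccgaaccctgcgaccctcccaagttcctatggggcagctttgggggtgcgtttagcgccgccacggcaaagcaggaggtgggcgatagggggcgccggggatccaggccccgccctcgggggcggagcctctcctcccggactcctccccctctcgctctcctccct
HSP90B1 held 2 matches, beginning 194 and 89 bases before the start, CALR held 1 at 225 bases, and KDELR1 held none. The motif was present in 26 of 35116 RefSeq promoters searched over the same 250 bases (0.0740%) and in 7 of the 41 promoters (17.1%) of the 31 ER genes matched by symbol; PDIA3, SPCS1, RPN1, STT3B and KDELR2 were not matched. CCAAT alone, which the longer motif contains, was present in 32.0% of all promoters and in 29 of the 41 (70.7%). The 6 genes with the motif were HSPA5, HSP90B1, CALR, CANX, PDIA6 and SERP1, and 5 of them were at least 2-fold lower in nucleus-like barcodes, from -1.61 for HSPA5 and PDIA6 to -1.80 for HSP90B1. SERP1, which stabilises membrane proteins in the ER, was the other, at 157 and 143 CPM and a log2 ratio of 0.13. Of all 36 ER genes, 22 were 2-fold lower. The median log2 ratio was -1.66 (-1.80 to 0.13) over genes with the motif. Over the other ER genes, unmatched ones included, it was -1.03 (-1.96 to 0.31). These ranges overlapped, and a link between motif and ratio was not tested. A match describes letters and not binding.

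Peaks over those starts had overlapping intervals in the sets. The HSP90B1 peak, chr12:103929772-103930621, held 65.6 CPM of peak counts (57 to 75.1) in nucleus-like and 72.3 (61.3 to 84.8) in cytoplasm-keeping barcodes. The CALR peak, chr19:12937984-12938888, held 97.9 (87.3 to 109) and 109 (95.4 to 124). The KDELR1 peak, chr19:48391191-48392000, held 25.4 (20.2 to 31.5) and 15.5 (10.6 to 21.8), with the higher value in nucleus-like barcodes, where its RNA was lower. Over all 44 peaks within 2000 bases of starts of ER genes, the sums were 2140 CPM (2090 to 2191) and 2218 CPM (2154 to 2282). Without mixed barcodes they were 2157 CPM (2105 to 2210) and 2314 CPM (2235 to 2396), whose intervals did not overlap, a log2 ratio of -0.10. A shift of this size was not particular to ER genes. Peaks at starts of G2 and mitosis genes also had a log2 ratio of -0.10 without mixed barcodes, and those of cytosolic ribosomal protein genes 0.06.

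Genes of other membrane and secretory compartments were lower as well, in lists added after values of these data had been seen. Of 35 lysosomal genes, 20 were at least 2-fold lower and none higher, with a median log2 ratio of -1.13, and without mixed barcodes 16 and -0.96. CD63, a tetraspanin of late endosomes, stood at 276 CPM (254 to 301) against 784 CPM (753 to 817). PSAP, the precursor of the saposins that help degrade sphingolipids, stood at 137 CPM against 413 CPM. ATP6AP1, an accessory subunit of the lysosomal proton pump, had the smallest ratio (-2.10), and MANBA, a lysosomal mannosidase, the largest (0.26).

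Of 36 genes for secreted matrix and surface adhesion proteins, 20 were at least 2-fold lower and none higher, with a median of -1.14, and 16 and -0.84 without mixed barcodes. SPARC, a matrix glycoprotein, stood at 74.1 CPM (62.7 to 87.1) against 317 CPM (297 to 338), the smallest ratio of the list (-2.08). ITGB1, the shared beta subunit of many integrins, stood at 561 and 1299 CPM. LAMC1, a laminin chain, stood at 487 and 579 CPM, and HSPG2, the proteoglycan perlecan, at 122 and 99.5 CPM, the largest ratio of the list. Of 25 genes of cholesterol and fatty acid synthesis 5 were lower, with a median of -0.50, and 8 with trimmed-mean scaling. SCD, an ER-bound desaturase of fatty acids, had the smallest ratio, at 24.0 against 121 CPM.

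The 15 smallest ratios of all genes at 50 CPM or more, taken without mixed barcodes, were those of MTRNR2L12 and MTRNR2L8, described below, and then of CKAP4, MSLN, IFI30, TM7SF2, SPARC, VTN, CES1, KDELR1, SCD, SRGN, MFSD10, SLPI and SLC39A7. CKAP4, an anchor of ER sheets to microtubules, stood at 31.6 CPM against 193 CPM without mixed barcodes, a log2 ratio of -2.57. VTN, the secreted adhesion protein vitronectin, stood at 42.6 and 204 CPM, and CES1, an ER carboxylesterase, at 58.9 and 279 CPM. SLPI, a secreted protease inhibitor, stood at 273 and 1131 CPM, and MSLN, the surface protein mesothelin, at 9.99 and 56.0 CPM.

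With mixed barcodes kept, the list of smallest ratios was led by genes of other lines. PCDH7, a protocadherin, stood at 2.50 and 80.0 CPM, and 98.3% of its cytoplasm-keeping UMIs lay in the 26 mixed barcodes. Without those barcodes it stood at 2.63 and 1.85 CPM. HMGA2, a DNA-bending chromatin protein, had all of its 216 cytoplasm-keeping UMIs in mixed barcodes. EGFR, the receptor tyrosine kinase, stood at 145 and 652 CPM with them and at 143 and 157 CPM without them. The mixed barcodes were picked by 369 genes of other lines. For genes among those 369, a gathering of UMIs in mixed barcodes follows from that choice and is description only.

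Ribosomal protein messages, which are short and abundant in growing cells, differed by less but in one direction. All 79 cytosolic ribosomal protein genes had log2 ratios below 0, from -1.44 for RPS21 to -0.15 for RPL10A, with a median of -0.80. Only 9 passed 2-fold, and with trimmed-mean scaling 27 did. They made up 1.69% of UMIs (1.67 to 1.71%) in nucleus-like and 2.98% (2.96 to 3.0%) in cytoplasm-keeping barcodes, and 1.70% and 2.95% without mixed barcodes. RPLP1, of the ribosomal stalk, stood at 352 CPM (327 to 379) against 864 CPM (831 to 899). RPL5, which carries the small 5S RNA into the large subunit, stood at 564 CPM (532 to 598) against 781 CPM (749 to 813). Near-identical pseudogene copies of these genes make single values uncertain.

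Other cytoplasmic functions lay between the ER genes and the median of all genes. Of 73 nuclear-encoded respiratory chain genes, 8 were 2-fold lower, with a median of -0.47. This count and that of the translation factors below lie near the 7.02% of all genes that were 2-fold lower, so the counts alone do not set these lists apart. COX6A1, a subunit of cytochrome c oxidase, stood at 109 and 302 CPM. Of 29 cytoskeleton genes 7 were lower, with a median of -0.70, among them ACTB, cytoplasmic actin, at 437 and 1222 CPM. Of 24 heat shock and chaperone genes 4 were lower (median -0.37), and HSP90AB1, the constitutive cytosolic HSP90, stood at 426 and 1046 CPM. Of 16 glycolysis genes none was 2-fold lower with mixed barcodes (median -0.35), 2 were with trimmed-mean scaling, and 2 of 15 were without mixed barcodes (median -0.49). GAPDH, a glycolytic dehydrogenase, was among the latter, at 474 and 992 CPM (469 and 919 CPM with mixed barcodes). Of 35 translation factors 3 were lower, or 6 with trimmed-mean scaling (median -0.17), and EEF1A1, the elongation factor that brings aminoacyl-tRNA to the ribosome, stood at 639 and 1194 CPM. PABPC1, the cytoplasmic poly(A)-binding protein, stood at 633 and 588 CPM. Mitochondrial ribosome genes (1 of 76 lower, median -0.16), tRNA synthetases (2 of 23, median -0.04) and proteasome genes (1 of 30, median -0.19) had few members past 2-fold, and without mixed barcodes the proteasome count was 3 (median -0.25).

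**Figure D2:**
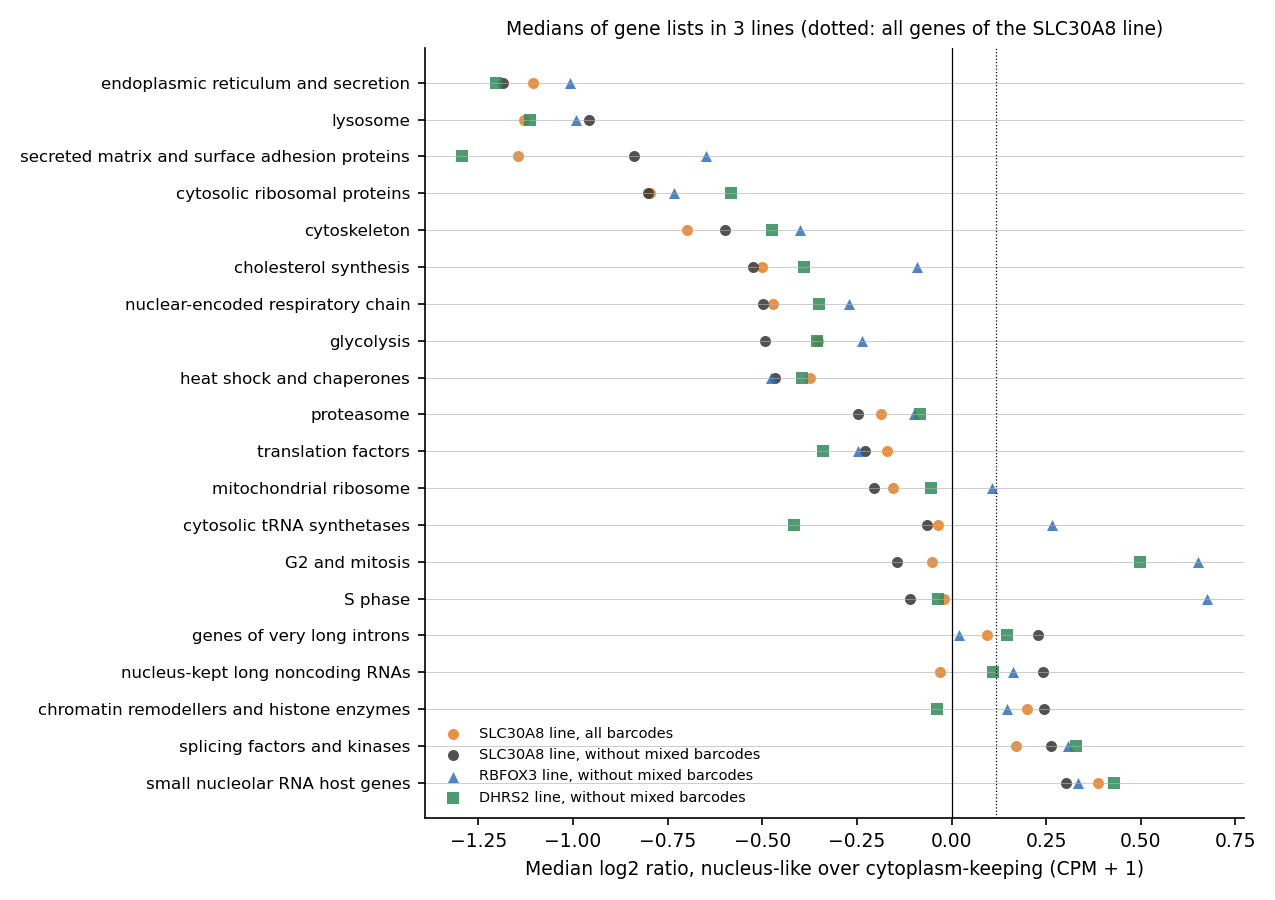
Median log2 ratio of nucleus-like over cytoplasm-keeping barcodes (x) for 20 gene lists (y). Circles show the SLC30A8 line with and without mixed barcodes, triangles the RBFOX3 line and squares the DHRS2 line, both without mixed barcodes. ER genes lie at -1.10 and -1.18 in the SLC30A8 line, and cytosolic ribosomal proteins at -0.80 with and without mixed barcodes.

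Genes of nuclear functions were near or slightly above the median of all genes, and few reached 2-fold. Of 50 chromatin remodellers and histone enzymes, a list added after values were seen, none passed 2-fold in either direction, and the median was 0.20. They summed to 1.08% of UMIs (1.06 to 1.09%) and 0.937% (0.926 to 0.948%). CHD9, a chromatin remodelling helicase, stood at 843 CPM (804 to 885) against 740 CPM (709 to 772), and ARID1B, a subunit of SWI/SNF, at 762 and 625 CPM. None of 30 splicing factors and kinases passed 2-fold (median 0.17). CLK1, a kinase of splicing factors, had the largest ratio, at 119 CPM (105 to 135) against 61.5 CPM (52.9 to 71.2). Of 15 small nucleolar RNA host genes, spliced noncoding transcripts that carry snoRNAs in their introns, 1 was 2-fold higher (SNHG12, 75.1 and 35.2 CPM) and the median was 0.39. ZFAS1 stood at 769 and 585 CPM and SNHG3 at 465 and 318 CPM.

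Long noncoding RNAs known for staying in the nucleus hardly separated the sets. The 10 listed summed to 4.78% (4.76 to 4.81%) and 4.29% (4.27 to 4.32%) of UMIs. MALAT1, an RNA of nuclear speckles, stood at 41406 CPM (41125 to 41690) and 36217 CPM (35999 to 36436), a log2 ratio of 0.19. NEAT1, the scaffold of paraspeckles, stood at 4278 and 4739 CPM, a ratio in the other direction (-0.15, and -0.06 without mixed barcodes). In single barcodes the MALAT1 share had a median of 3.69% (0.265 to 11.8%) in nucleus-like and 3.41% (0.352 to 12.3%) in cytoplasm-keeping barcodes. Of the nucleus-like barcodes, 162 of 289 lay above the cytoplasm-keeping median. The sets thus lay close by RNAs of the nucleus and far apart by mitochondrial share, and their names stand for the latter.

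The largest ratios at 50 CPM or more were small in number and size. TTN, which encodes the muscle protein titin, stood at 53.6 CPM (43.9 to 64.8) against 19.8 CPM (15.1 to 25.6), a log2 ratio of 1.39. HTR1E, a serotonin receptor gene and a marker of the line, stood at 80.1 CPM (68.2 to 93.6) against 31.1 CPM (25 to 38.2). Of the 14 genes past 2-fold, 6 have clone names and are left unnamed, and the rest were SNHG12, SAMD11, CTNNA3, INKA2, NUAK1 and GORAB, at log2 ratios from 1.07 for SNHG12 to 1.02 for GORAB. Without mixed barcodes HTR1E, TTN and GORAB stayed past 2-fold (1.13, 1.17 and 1.02), while SNHG12 (0.90), SAMD11 (0.90), CTNNA3 (0.91), INKA2 (0.99) and NUAK1 (0.95) did not. ARMH4 then had the largest ratio at 1.21, from 0.93 with mixed barcodes. Sense and antisense reads at loci such as TTN cannot be told apart here.

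Gene length ordered the ratios of protein-coding genes. RefSeq gave a length for 89.8% of the measured genes. The 1965 coding genes under 10 kb had a median log2 ratio of -0.27 and 15.2% of them were 2-fold lower, while the 1415 of 100 to 200 kb had a median of 0.12 and 4.66%. With mixed barcodes, genes over 500 kb were again often lower (17.9% of 179). Without mixed barcodes 0.680% of 147 were, and the medians went up at each step of length, from -0.25 under 10 kb to 0.24 over 500 kb. Coding genes under 10 kb gave 7.01% of nucleus-like and 10.7% of cytoplasm-keeping UMIs, and those of 200 to 500 kb gave 17.3% and 15.4%. Among 33 measured genes of very long introns the median was 0.09, -0.03 with trimmed-mean scaling and 0.23 without mixed barcodes. LPP, a LIM domain protein of focal adhesions, stood at 1652 and 1308 CPM, and TBC1D5, a regulator of endosomal sorting, at 3326 and 2710 CPM. NAALADL2 had the smallest ratio of that list, at 10.5 and 59.8 CPM with mixed barcodes and 10.5 and 5.55 CPM without them. Long noncoding RNAs of RefSeq had a median of 0.27 over 801 genes, with 49 higher and 50 lower, and without mixed barcodes 63 higher and 4 lower of 699. Among all measured genes 2.16% were higher and 7.02% lower, and without mixed barcodes 2.53% and 4.88%. At 10 CPM or more and without mixed barcodes, 28 of 461 long noncoding RNAs were higher and 1 lower, so many of the 63 had low levels.

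**Figure D3:**
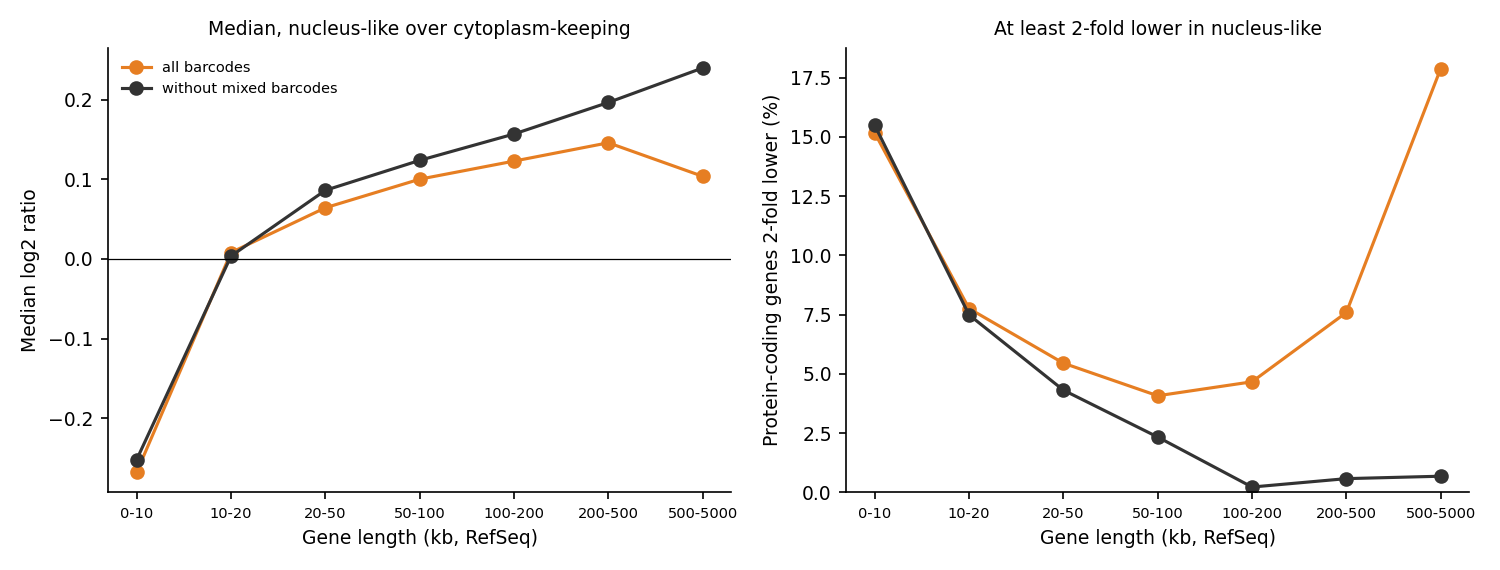
Protein-coding genes by RefSeq length in kb (x): median log2 ratio of nucleus-like over cytoplasm-keeping barcodes (left) and the percent at least 2-fold lower in nucleus-like barcodes (right), with all barcodes and without mixed ones. Genes under 10 kb have the lowest medians (-0.27 and -0.25), and over 500 kb the percent of lower genes is 17.9% with mixed barcodes and 0.680% without them.

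Cell cycle genes had similar sums in both sets with mixed barcodes and lower sums in nucleus-like barcodes without them. The 43 S phase genes made up 0.239% (0.232 to 0.245%) and 0.244% (0.239 to 0.25%) of UMIs with a median log2 ratio of -0.02, and the 53 genes of G2 and mitosis 0.465% and 0.478% with a median of -0.05, none of either list at 2-fold. Without mixed barcodes the S phase sums were 0.239% (0.232 to 0.246%) and 0.265% (0.258 to 0.272%). Those of G2 and mitosis were 0.463% (0.454 to 0.473%) and 0.502% (0.493 to 0.512%), and neither pair of intervals overlapped. These intervals leave out the spread between barcodes, and single barcodes overlapped widely. Their S phase shares then ran from 0 to 1.14% in nucleus-like and from 0.0233 to 0.715% in cytoplasm-keeping barcodes. Those of G2 and mitosis ran from 0.0283 to 1.89% and from 0.0518 to 1.66%. Without mixed barcodes 2 of the 43 S phase genes were 2-fold lower. This count lies near the 4.88% of all genes that were, so it does not set the list apart. The 2 genes were FEN1, the flap endonuclease of lagging-strand synthesis (13.2 and 30.5 CPM), and MCM2, a subunit of the replicative helicase (8.41 and 23.1 CPM). MCM2 was named after its values were seen. TOP2A, the topoisomerase of mitotic chromosomes, stood at 248 and 293 CPM. Short-lived early response genes, which mark dissociation stress, summed to 0.0977% and 0.119%, with a median of -0.03, and of 0.18 without mixed barcodes, and CCN1, a secreted matricellular protein, stood at 281 and 445 CPM. The list of ATF4 and amino acid stress targets had a median of -0.29 with mixed barcodes and 0.12 without them. The p53 target list had a median of 0.31 with 1 of 15 measured genes 2-fold lower, near the 7.02% of all genes that were. That gene was FAS, a death receptor, at 1.5 and 6.49 CPM, and at 1.58 and 1.85 CPM without mixed barcodes.

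Cancer-testis antigens are germline genes that tumours reactivate, and the list includes MAGEA10, which the rule used. Of the 25 listed, 12 others were measured, of which 5 were 2-fold lower in nucleus-like barcodes and none higher, with a median of -0.89. Without mixed barcodes 7 of the 12 were lower, with a median of -1.13. MAGEA4 stood at 29.0 CPM (22.1 to 37.6) against 56.4 CPM (48.1 to 65.7). PRAME, a transcriptional repressor of retinoic acid signalling, had the largest ratio, at 67.6 and 53.3 CPM. Reads of the near-identical MAGE-A genes may be shared among them.

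Single barcodes showed the ER difference as a gradient along the mitochondrial share. The ER share of UMIs had a median of 0.516% (0.222 to 0.921%) in the 289 nucleus-like and 1.31% (0.287 to 2.29%) in the 175 cytoplasm-keeping barcodes. No nucleus-like barcode reached the cytoplasm-keeping median, and 2 cytoplasm-keeping ones lay below the nucleus-like median, none of them once mixed barcodes were left out. The 26 mixed barcodes had a lower ER share (median 0.875%) than the 149 others (1.35%). Without mixed barcodes the median went from 0.489% below 0.25% mitochondrial UMIs to 0.557% and 0.547% in the next 2 bins, up to 0.5 and 1%. It was 0.697% between 1 and 4%, 1.12% between 4 and 8%, 1.34% between 8 and 12% and 1.49% between 12 and 20%. Most of the difference thus lay between the sets and a smaller part within the cytoplasm-keeping one. The ribosomal protein share followed with medians of 1.72% (0.871 to 4.59%) and 2.94% (1.29 to 6.81%), and 8 of the 289 nucleus-like barcodes lay above the cytoplasm-keeping median. The chromatin enzyme share went the other way, with medians of 1.06% and 0.923%.

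**Figure D4:**
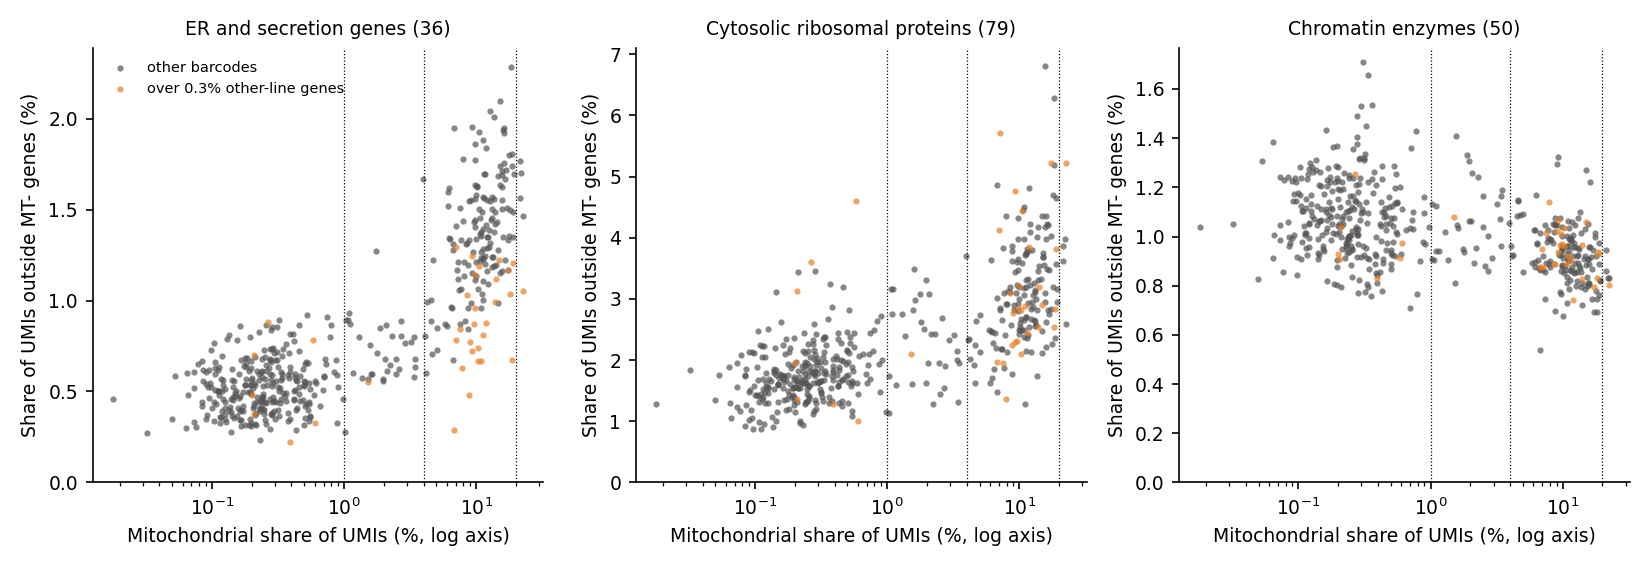
Share of UMIs outside mitochondrial genes (y, percent) in 36 ER genes, 79 ribosomal protein genes and 50 chromatin enzyme genes against the mitochondrial share (x, percent, log axis), 1 point per barcode of the 504 of the line, mixed barcodes in orange. Dotted lines mark 1, 4 and 20%. The ER share has medians of 0.516% left of the first line and 1.31% between the last 2, and the chromatin enzyme share 1.06% and 0.923%.

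Few peaks differed 2-fold between the sets. Of 22472 peaks with at least 100 counts over both sets, 75 (0.334%) were at least 2-fold higher and 46 (0.205%) at least 2-fold lower in nucleus-like barcodes. Without mixed barcodes, 67 (0.341%) and 19 (0.0967%) of 19651 were. Only 22 higher and 5 lower peaks were shared by the comparisons with and without mixed barcodes. Peaks within 2000 bases of a gene start held 56.7% of peak counts (56.6 to 56.7%) in nucleus-like and 56.0% (55.9 to 56.1%) in cytoplasm-keeping barcodes. Without mixed barcodes the order turned, at 57% and 57.9%. Median shares per barcode were 57.5% (44.7 to 69.1%) and 58.1% (47.1 to 67.3%), which overlapped almost wholly. Without mixed barcodes the share of peak counts per chromosome differed by a log2 ratio of at most 0.06 in size, at chromosome 21 (-0.06).

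The 2 peaks with the smallest ratios lay in copies of mitochondrial sequence or beside one. The peak chr17:22520957-22521853, 1257 bases from MTRNR2L1, held 9.66 CPM (6.56 to 13.7) in nucleus-like and 71.6 CPM (60.6 to 84.0) in cytoplasm-keeping barcodes. The peak chr1:633526-634475, in a stretch known as a nuclear copy of mitochondrial DNA, held 18.2 CPM (13.9 to 23.5) and 107 CPM (93.8 to 122). Both kept their difference without mixed barcodes, at 9.03 against 80.5 CPM and 18.6 against 115 CPM. The next 3, nearest PVT1 on chromosome 8, EGFR on chromosome 7 (chr7:55132524-55133421) and ADTRP on chromosome 6 (chr6:11766290-11767198), did not, and stood at 17.1 CPM or less in either set without mixed barcodes. The RNA of MTRNR2L12, a nuclear gene that closely resembles mitochondrial ribosomal RNA, showed the same direction, at 42.1 CPM (33.6 to 52.1) against 961 CPM (926 to 997). MTRNR2L8, of the same family, stood at 2.00 and 57.1 CPM. Their values moved with the mitochondrial share that chose the sets, and whether their reads came from mitochondria was not tested. With mixed barcodes the largest peak ratio lay 3652 bases from ST5 (chr11:8906391-8907299), at 16.8 CPM (12.6 to 22.0) against 4.54 CPM (2.13 to 8.47). Without them the log2 ratio of that peak was 1.53, and the largest ratio, 1.70, lay at a peak nearest BCOR (chrX:40154851-40155630), at 15.2 and 3.99 CPM.

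At the gene starts of the lists, peaks differed by less than the RNA did where RNA differed most. Without mixed barcodes, no listed gene with at least 100 peak counts at its start differed 2-fold there, in any list. Among all measured peaks 0.341% were higher and 0.0967% lower, so a count of 0 lies near that of all peaks. The 36 ER genes had a median of -0.11 at their starts and -1.18 in RNA, and the 79 ribosomal protein genes 0.05 and -0.80. The lysosomal genes had -0.04 and -0.96, and the 49 chromatin enzymes 0.03 and 0.24. CKAP4, which is in no list, had a start peak of 14.7 and 30.1 CPM, a log2 ratio of -0.98 beside -2.57 in RNA. A second, smaller peak at its start held 48 and 42 counts with mixed barcodes. Without them it stood at 7.36 and 8.34 CPM, a log2 ratio of -0.16.

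**Figure D5:**
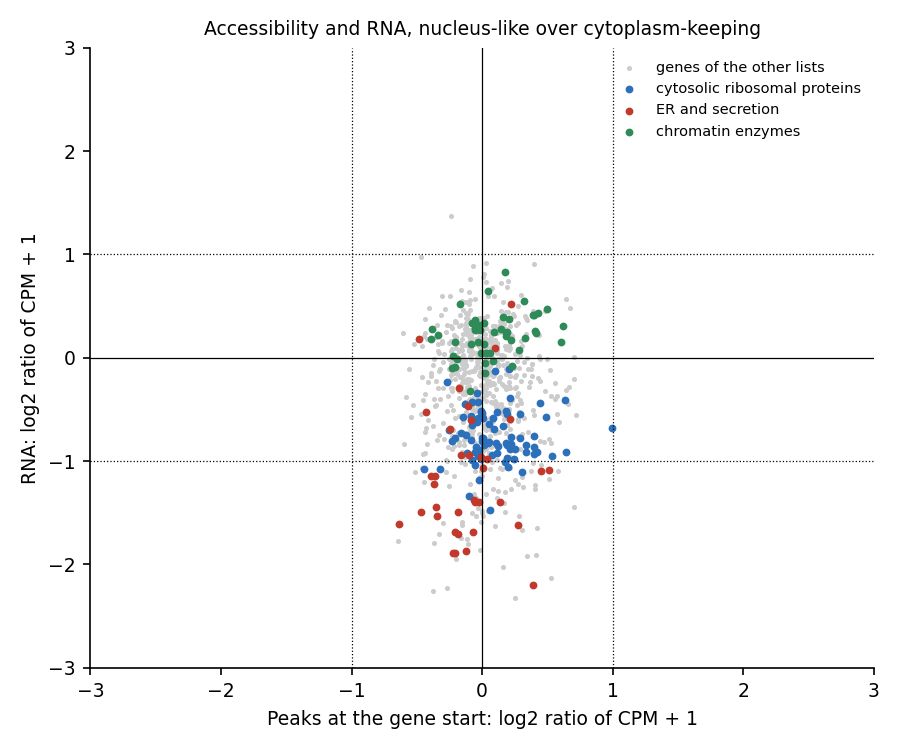
Log2 ratio of nucleus-like over cytoplasm-keeping barcodes for peaks at a gene's start (x) and for its RNA (y), 1 point per listed gene, without mixed barcodes. Dotted lines mark 2-fold. Points spread along y, with ER genes at a median of -1.18 and ribosomal proteins at -0.80, and stay within 2-fold along x.

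The same division was made in the lines whose 2 sets both held at least 50 barcodes, with a marker pair of each line (RBFOX3 and AKR1B10, or DHRS2 and NALCN-AS1) in place of the 4 genes. The RBFOX3 line had 463 nucleus-like and 88 cytoplasm-keeping barcodes, of which 29 and 36 were mixed, and the DHRS2 line 57 and 140, of which 0 and 4 were. Without mixed barcodes, 483 of 12265 genes were 2-fold lower in the RBFOX3 line (3.94%) and 1771 of 13426 in the DHRS2 line (13.2%). ER genes had medians of -1.01 and -1.20 there, with 18 and 19 of 36 lower, beside -1.18 and 23 in the SLC30A8 line. HSP90B1, CALR and KDELR1 had log2 ratios of -1.81, -1.75 and -2.17 in the RBFOX3 line and of -1.97, -1.80 and -1.61 in the DHRS2 line. Ribosomal protein genes had medians of -0.73 and -0.58, beside -0.80. Of the genes 2-fold lower in the SLC30A8 line, 233 of the 496 measured in the RBFOX3 line were lower there too (47.0%, or 48.2% of the lower genes of that line). In the DHRS2 line 314 of 570 were (55.1%, or 17.7% of that line's). Genes of G2 and mitosis had medians of 0.65 and 0.50 in those lines and -0.14 in the SLC30A8 line. Of these 53 genes, 16 were 2-fold higher in the RBFOX3 line, where 7.98% of all genes were, and 9 in the DHRS2 line, where 5.89% were. S phase genes were higher in only 1 of the 2 lines by their medians, at 0.67 in the RBFOX3 line and -0.03 in the DHRS2 line, beside -0.11 in the SLC30A8 line. SPARC had log2 ratios of 0.55, -1.36 and -2.26 in the RBFOX3, DHRS2 and SLC30A8 lines. These differences between lines were not tested, with 1 culture of each.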

How the data were processed

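RNA and ATAC libraries of 1 capture were measured in the same barcodes. The deposited values are raw counts, UMIs per gene and counts per peak, which the authors made with Cell Ranger ARC (version 2.0.0, per the file headers). The build is GRCh38, per the submitters' processing notes. The deposited start and end positions (another value per the file headers) were used only to place genes and peaks. For barcode calling, peak calling and strand the method is not given in the sources used here. Counts were summed over each set and scaled to a total of 1000000 (CPM). Ratios are log2 of CPM + 1. Genes needed 20 UMIs and peaks 100 counts over both sets, and 2-fold is a rule of size, not a test. A fragment mostly adds 2 peak counts (83.2% of entries are even), so peak intervals (exact Poisson) used counts divided by 2. Shares have exact binomial (Clopper-Pearson) intervals. Gene starts are both ends of the deposited gene entries. The main analysis used Python 3.11.15 with numpy 2.4.6 and scipy 1.17.1, and trimmed-mean factors came from edgeR 4.0.16 in R 4.3.3. The ratio calculation was checked on simulated Poisson sums with known folds. These sums held no spread between barcodes, so the check covers the calculation only and not the ratios of these data. No cell type annotation was used and doublets were not called. Libraries totalled 62477861 UMIs and 131221183 peak counts.

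Barcodes, gene lists and settings were chosen with earlier results of these data known, and 6 of the 32 lists, those of lysosome, matrix and adhesion, cholesterol synthesis, tRNA synthetases, mitochondrial ribosome and chromatin enzymes, after values were seen. Genes named are the 15 largest and 15 smallest ratios among genes at 50 CPM or more in the higher set (clone names left out), with and without mixed barcodes, and in each list the 3 highest by level and the largest and smallest ratio. Peaks named are the 5 largest and smallest ratios. Others are marked or belong to a motif count.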

Additional observations from a re-analysis of the deposited data

How the results depend on the processing

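Each comparison rests on 1 culture and 1 capture, so settings show only how the counts depend on choices. Leaving out mixed barcodes, chosen after seeing the data, gave 622 lower genes, 19 lower peaks, a cytoplasm-keeping ribosomal protein share of 2.95%, a cytoplasm-keeping share of nucleus-kept RNAs of 4.11%, and shares near gene starts of 57% and 57.9%. Counts at 2-fold depended most on low features. With no minimum, 1189 genes and 7705 peaks were higher and 1908 genes and 9919 peaks lower. With a pseudocount of 5 CPM, 49 genes and 4 peaks were higher and 8 peaks lower. Trimmed-mean scaling gave 124 higher peaks. Taking cytoplasm-keeping from 8% gave 149 higher peaks, a ribosomal protein share of 3.11% and 55.6% near gene starts. Taking nucleus-like below 0.5% gave shares of 1.66% and 4.84% for ribosomal proteins and nucleus-kept RNAs. Barcodes without any UMI of the 8 other markers gave 20 lower peaks, ribosomal protein shares of 1.74% and 3.04%, nucleus-kept RNA shares of 4.57% and 3.85%, and 57% and 57.9% near gene starts. Weighting barcodes equally gave 347 higher and 147 lower peaks, 1.77% and 3.10%, 4.59% and 4.13%, and 57.5% and 57.6%. Leaving MALAT1 and NEAT1 out gave 1.77% and 3.10%, and 0.227% and 0.206%. Binarised peaks gave 44 higher, 26 lower, and 51.0% and 49.0%, and a distance of 500 bases 50.8% and 50.1%. The cause of these shifts was not tested. In each setting the ribosomal protein share was lower in nucleus-like barcodes. The share near gene starts kept no order. No paired analysis was possible because the sets are barcodes of 1 library.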

Other observations

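The few mitochondrial UMIs of nucleus-like barcodes were spread over the same genes as the many of cytoplasm-keeping ones, with shares that differed beyond counting error for 5 of the 13 genes. The 289 nucleus-like barcodes held 5658 such UMIs and the 175 cytoplasm-keeping ones 366506. MT-CO2, a subunit of cytochrome c oxidase, gave 24.1% (23 to 25.3%) and 25.1% (24.9 to 25.2%) of them, MT-CO3 21.7% (20.6 to 22.7%) and 19.5% (19.4 to 19.6%), and MT-ATP6, a subunit of ATP synthase, 15.5% (14.6 to 16.5%) and 15% (14.9 to 15.1%). MT-ND4, a subunit of complex I, gave 5.28% (4.72 to 5.90%) and 6.68% (6.60 to 6.76%), and the intervals of MT-CO3 and MT-ND4 did not overlap. Nor did those of MT-ND2, at 3.16% (2.72 to 3.65%) and 4.23% (4.17 to 4.30%), MT-CO1, at 11.5% (10.7 to 12.3%) and 10.3% (10.2 to 10.4%), and MT-CYB, at 7.19% (6.53 to 7.90%) and 8% (7.91 to 8.09%). Without mixed barcodes the cytoplasm-keeping shares were 19.6% for MT-CO3, 6.13% for MT-ND4, 4.39% for MT-ND2, 9.54% for MT-CO1 and 8.10% for MT-CYB. Each of these stayed outside the nucleus-like interval given above, and MT-CO2, at 25.6%, then lay outside its own as well. Over all 3298 barcodes of the 5 lines MT-ND4 gave 9.30%. Whether these UMIs were inside the droplet's own cell or free RNA was not tested.

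The 35 barcodes of the line between 1 and 4% mitochondrial UMIs had medians of 6861 UMIs, 17922 peak counts and an ER share of 0.681%, nearer to the nucleus-like than to the cytoplasm-keeping medians. The 5 barcodes above 20% had a median of 19729 UMIs.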
